A study of Mus musculus with 2 samples.

Results

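The rods described here are the 12739 cells that the deposited cell table names Rod and places in author cluster 0 or 1. They were 12739 of 19359 rods and of 30943 retinal cells in all, with 6139 in Ptbp1-Ctrl and 6600 in Ptbp1-KO. Clusters 2 and 3 held the rods set beside them below, 3919 in Ptbp1-Ctrl and 2701 in Ptbp1-KO. Each library came from the whole dissociated retina of 1 mouse aged 30 days (P30). Ptbp1-Ctrl carried the Chx10-Cre transgene alone, and Ptbp1-KO carried Chx10-Cre with both Ptbp1 alleles floxed (Chx10-Cre;Ptbp1lox/lox). Both mice thus shared the Cre transgene, which is active in retinal progenitors, the cells from which rods descend. The loxP sites flank the promoter and the first exon of Ptbp1, and where the counted Ptbp1 reads lie within the gene was not examined. With 1 library per genotype there was no replicate, so genotype cannot be told apart from mouse, dissociation or library, and no test was run between genotypes. Cells of 1 mouse are not replicates, and the clusters were made from the same genes, so comparisons between clusters are descriptions.

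Rods are the photoreceptors of dim light and the most numerous cells of the mouse retina. Light absorbed in the disc membranes of the outer segment activates the G protein transducin (Gnat1, Gnb1, Gngt1), which releases the phosphodiesterase PDE6 (Pde6a, Pde6b, Pde6g) to break down cGMP, so that the cGMP-gated channel (Cnga1, Cngb1) closes. The transcription factors Crx, Nrl and Nr2e3 maintain the rod programme. Malat1 is a long noncoding RNA (lncRNA) kept in the nucleus, whereas mRNAs of ribosomal proteins are abundant in the cytoplasm and mRNAs of the mitochondrial genome are made and held in mitochondria.

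The name Rod was checked against 5 markers, Nrl, Nr2e3, Gnat1, Pde6b and Cnga1, at equal depth, with each cell thinned to 700 randomly drawn UMIs (unique molecular identifiers, each counting 1 captured transcript). In clusters 0 and 1, Gnat1 was detected in 74.2% of Ptbp1-Ctrl rods (95% interval 73.1 to 75.3) and 73.3% of Ptbp1-KO rods (72.2 to 74.4), and Pde6b in 72.2% and 70.3%. The cGMP-gated channel gene Cnga1 was detected in 56.4% and 51.3%. The 2 transcription factors were detected in fewer of these rods, Nrl in 37.6% and 32.2% and Nr2e3 in 36.3% and 28.9%. Müller glia, which should lack these genes, set the level of free RNA: 35.5% and 31.2% of them had a Gnat1 UMI, and between 6.42% and 16.4% had a UMI of each of the other 4 markers. All 5 markers were thus detected more often in these rods than in Müller glia of either library. Before thinning, the median depth was 919 and 1031.5 UMIs in the rods and 3333 and 4178 UMIs in Müller glia, and the shares with a Gnat1 UMI were 83.2% and 84.3% in the rods against 73.1% and 76.1% in Müller glia. In rods of clusters 2 and 3, the share at 700 UMIs was 97.2% and 97.4% for Gnat1, 72.3% and 67.1% for Nrl, and 73.8% and 74.5% for Pde6b, so Pde6b alone of these 3 was detected about as often in both sets of rods.

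The study's methods state that both mice were female, but rods of both libraries carried transcripts of the Y chromosome. In these rods the control library had 1709 UMIs of Eif2s3y and 1602 of Uty, the knockout library 2259 and 2218, and Xist, the RNA of the inactive X chromosome, had 2 UMIs in each. Among all cells, 63 cell barcodes occurred in both libraries, 11 of them in rods of clusters 0 and 1. Ptbp1 itself, whose product represses neuronal splicing, had 138 UMIs in Ptbp1-Ctrl rods of clusters 0 and 1, or 21.0 CPM (UMIs per 1000000 UMIs of the summed cells), and 0 in Ptbp1-KO. Set against a floor of 3 UMIs in that library, Ptbp1 was at least 57.5-fold lower in Ptbp1-KO, a bound that takes the control value as it stands. With counting error of both libraries, the upper 95% limit of its log2 ratio was -5.53. At 700 UMIs, 1.51% of Ptbp1-Ctrl rods (93 of 6139) had a Ptbp1 UMI, and 0 of 6600 Ptbp1-KO rods had one. A floor of 3 rods would be a share of 0.0455%, and the upper limit of the 95% interval was 0.0559%. In Ptbp1-KO rods of clusters 2 and 3, 2 of 2701 had one. Among Müller glia, 3.31% (Ptbp1-Ctrl) and 0.169% (Ptbp1-KO) had a Ptbp1 UMI. The part of free RNA in the Ptbp1 UMIs of rods was not tested. Ptbp2, the neuronal paralog, was at 184 and 193 CPM, a log2 ratio of 0.07 (-0.04 to 0.18), and Ptbp3 at 25.1 and 23.7 CPM, a log2 ratio of -0.08 (-0.39 to 0.23), so neither differed beyond counting error.

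The stretch around the transcription start is shown for 3 rod genes that behaved differently below, Rbp3, Cnga1 and Pde6b. Rbp3 encodes the retinoid-binding protein of the matrix around photoreceptors. By the weaker of its ratios in the libraries, it ranked lowest of all genes in clusters 0 and 1 relative to clusters 2 and 3. Cnga1 was moderately lower there, and Pde6b was nearly equal. Of 7 rod genes looked up in RefSeq (GRCm38.p6), 5 matched. Each window runs from 250 bases before to 50 bases after the start, 5' to 3', at chr14:33953753-33954052 (+ strand) for Rbp3, chr5:72642703-72643002 (- strand) for Cnga1 and chr5:108388123-108388422 (+ strand) for Pde6b. Capitals mark the letters TAATCC (or GGATTA on the other strand), the type bound by CRX, and TGCTGA (or TCAGCA), the core of the type bound by NRL.
Rbp3: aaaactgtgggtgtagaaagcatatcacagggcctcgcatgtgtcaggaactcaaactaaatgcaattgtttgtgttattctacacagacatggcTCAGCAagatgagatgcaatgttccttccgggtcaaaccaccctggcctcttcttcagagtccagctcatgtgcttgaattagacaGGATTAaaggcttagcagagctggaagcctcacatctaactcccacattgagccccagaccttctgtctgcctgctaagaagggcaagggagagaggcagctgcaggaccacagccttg
Cnga1: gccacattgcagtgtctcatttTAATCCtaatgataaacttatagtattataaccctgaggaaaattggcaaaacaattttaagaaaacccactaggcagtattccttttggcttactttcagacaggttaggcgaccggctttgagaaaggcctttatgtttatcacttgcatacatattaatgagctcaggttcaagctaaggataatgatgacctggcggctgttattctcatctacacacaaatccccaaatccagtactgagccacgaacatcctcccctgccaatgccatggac
Pde6b: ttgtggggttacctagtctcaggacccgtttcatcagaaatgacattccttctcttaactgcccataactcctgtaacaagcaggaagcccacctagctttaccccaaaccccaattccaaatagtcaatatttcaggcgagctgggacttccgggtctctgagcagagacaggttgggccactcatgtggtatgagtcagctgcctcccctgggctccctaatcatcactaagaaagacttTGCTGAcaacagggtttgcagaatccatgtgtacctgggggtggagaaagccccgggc
The CRX-type letters stood once in the Rbp3 and once in the Cnga1 window, and in 7.06% of all 32851 windows (2320). The NRL-type letters stood once in the Rbp3 and once in the Pde6b window, and in 19.5% of all windows (6401). These matches describe the letters only.

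Rods of clusters 0 and 1 were shallow cells near the lower limit of the authors' filter. Their median depth was 919 UMIs in Ptbp1-Ctrl (quartiles 790 to 1195) and 1031.5 in Ptbp1-KO (842.75 to 1432), against 1411 and 2005 in clusters 2 and 3. Below 1000 UMIs lay 59.7% and 46.4% of them, compared with 12.6% and 2.41% of rods of clusters 2 and 3. The 2 clusters were apart in their mitochondrial share. The median was 0.662% and 0.801% of UMIs in cluster 0 and 4.2% and 4.65% in cluster 1, and at or above 2.5% lay 3.34% and 5.93% of cluster 0 rods but 91.3% and 96.2% of cluster 1 rods. Clusters 2 and 3 showed the same kind of split, with medians of 2.19% and 2.11% in cluster 2 and 5.12% and 4.60% in cluster 3. Because the clusters stood apart in depth, make-up and gene levels were compared between them after thinning to 700 UMIs, unless stated otherwise.

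**Figure D1:**
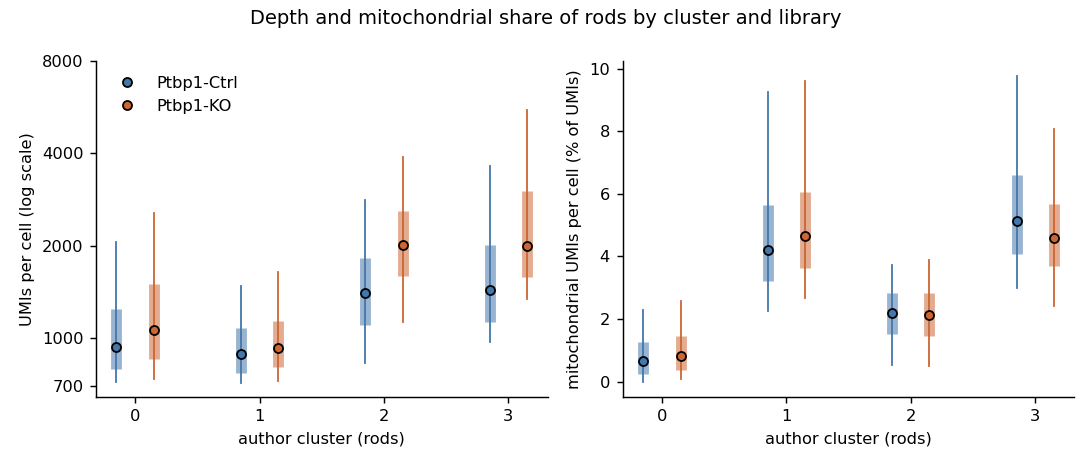
UMIs per cell (left, log scale) and percent of UMIs from mitochondrial genes (right) for rods of author clusters 0 to 3 in each library. Points are medians, thick bars the quartiles and thin bars the 5th to 95th percentile over cells: clusters 0 and 1 lie at medians from 884 to 1063.5 UMIs, and clusters 1 and 3 lie at the high mitochondrial shares.

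Clusters 0 and 1 together made up 61.0% of rods in Ptbp1-Ctrl (60.1 to 62.0) and 71.0% in Ptbp1-KO (70.0 to 71.9). Cluster 0 held 4614 and 5462 rods, 45.9% and 58.7%, and cluster 1 held 1525 and 1138 rods, 15.2% and 12.2%. These shares are given as composition only: Ptbp1-KO cells were deeper, and levels of Malat1 and of ribosomal protein genes, which separate the clusters, themselves differed between the libraries. Among rods with at least 1000 UMIs the shares of clusters 0 and 1 were 42.0% and 57.3%.

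At equal depth, rods of clusters 0 and 1 held more of their UMIs in Malat1 and other lncRNAs, and fewer in ribosomal protein and phototransduction genes, than rods of clusters 2 and 3. Malat1 made up 3.30% (Ptbp1-Ctrl) and 3.86% (Ptbp1-KO) of UMIs, against 1.76% and 2.13%, and lncRNAs as a whole 8.01% and 9.09% against 4.81% and 5.49%. Ribosomal protein genes made up 1.90% and 1.70% against 5.51% and 5.02%. The 10 genes of the phototransduction cascade made up 2.98% and 2.63% against 7.26% and 7.05%. The mitochondrial share depended on the cluster, at 0.851% and 0.997% in cluster 0 and 4.80% and 5.13% in cluster 1, against 3.77% and 3.14% in clusters 2 and 3. The number of genes seen per 700 UMIs was nearly equal, with medians of 534 and 536 against 524 and 530. The order ran through all 4 clusters: Malat1 was 3.47% and 4.0% in cluster 0, 2.81% and 3.19% in cluster 1, 2.66% and 2.97% in cluster 2, and 0.742% and 0.657% in cluster 3.

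Single cells of the 2 sets overlapped in these measures. Per 700 UMIs, the median rod of clusters 0 and 1 had 22 Malat1 UMIs in Ptbp1-Ctrl (5th to 95th percentile 12 to 37.1) and 26 in Ptbp1-KO (14 to 44), against 11 (0 to 30) and 15 (0 to 34) in clusters 2 and 3. Rods without any Malat1 UMI made up 7.17% and 9.07% of clusters 2 and 3, but 0.0163% of clusters 0 and 1 in Ptbp1-Ctrl and 0 in Ptbp1-KO. Such rods were 15.2% and 24.4% of cluster 3 but 0.144% and 0.463% of cluster 2. The median rod of clusters 0 and 1 had 12 and 11 ribosomal protein UMIs, below the 5th percentile of clusters 2 and 3, which was 13 in both libraries. Of phototransduction UMIs it had 19 and 17, also below their 5th percentile of 22 and 21. In cluster 2 alone the 5th percentile was 11 ribosomal protein and 19 phototransduction UMIs in both libraries. The 95th percentile of clusters 0 and 1 was 27 and 22 ribosomal protein UMIs, against a lower quartile of 24 and 23 in clusters 2 and 3. For phototransduction it was 36 and 31, against 34 and 33.

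Malat1 and ribosomal protein shares of rods of clusters 0 and 1 varied little with their depth. From the bin of 701 to 800 UMIs to that of 3001 to 10000 UMIs, Malat1 ranged from 3.16% to 3.56% in Ptbp1-Ctrl and from 3.50% to 4.32% in Ptbp1-KO, and ribosomal protein genes from 1.58% to 2.08% and from 1.52% to 1.95%. The mitochondrial share was 1.97% and 1.89% in the shallowest bin and 1.07% and 1.18% in the deepest. Deep rods of clusters 0 and 1 kept the low ribosomal share: the 39 and 145 cells above 3000 UMIs held 1.58% and 1.82%, against 6.09% and 5.26% in clusters 2 and 3. The shallowest rods of clusters 2 and 3 lay closer to clusters 0 and 1 in make-up, though with more ribosomal protein and phototransduction UMIs. The 90 Ptbp1-Ctrl rods of clusters 2 and 3 with 701 to 800 UMIs held 3.08% Malat1, 2.66% ribosomal protein and 3.78% phototransduction UMIs, against 3.16%, 1.86% and 2.80% in clusters 0 and 1 of that bin. In Ptbp1-KO the 57 rods of clusters 2 and 3 with 1001 to 1250 UMIs held 3.90% Malat1, 2.58% ribosomal protein and 3.72% phototransduction UMIs, against 3.84%, 1.52% and 2.46%. The 25 and 40 rods in the bins below held 2.22% and 2.20% ribosomal protein UMIs, against 1.77% and 1.58%. How cells of mixed make-up were divided among the clusters at low depth was not tested.

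**Figure D2:**
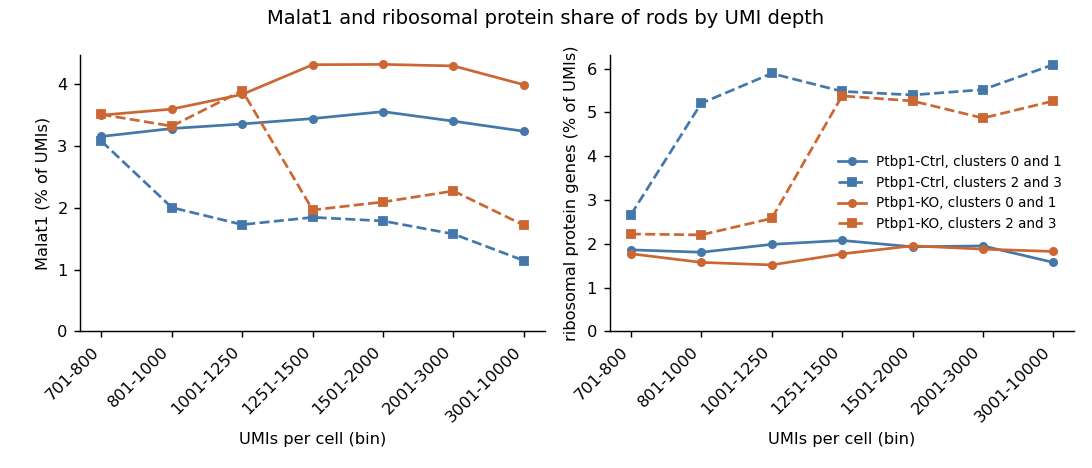
Malat1 (left) and ribosomal protein genes (right) as percent of UMIs in rods binned by UMIs per cell, for clusters 0 and 1 (solid lines, circles) and clusters 2 and 3 (dashed lines, squares) in each library. Each point sums all cells of a bin with at least 20 cells: the solid lines are nearly level, and the dashed lines lie closest to them up to 800 UMIs in Ptbp1-Ctrl and up to 1250 UMIs in Ptbp1-KO.

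Gene by gene, 3671 genes with a mean of at least 50 CPM were compared between clusters 0 and 1 and clusters 2 and 3 at 700 UMIs. In both libraries 1632 (44.5%) were higher and 1135 (30.9%) lower in clusters 0 and 1 by a log2 ratio of at least 0.25 (1.19-fold). With TMM scaling, which scales by a trimmed mean of the gene ratios, 1120 were higher and 1350 lower. The median log2 ratio moved from 0.23 and 0.19 to -0.02 and -0.05, so ratios between these sets of clusters are best read relative to that shift. In cells of 1000 to 1500 UMIs only, 1471 of the 1632 higher and 1003 of the 1135 lower genes were past the fold again, and 0 turned over.

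All 79 ribosomal protein genes tested were lower, with a median log2 ratio of -1.56 in Ptbp1-Ctrl and -1.58 in Ptbp1-KO. The genes for nuclear-encoded subunits of oxidative phosphorylation followed, with 73 of 80 lower and 2 higher (medians -1.25 and -1.31), as did 13 of 17 glycolysis genes (-0.94 and -0.77). The 13 mitochondrially encoded genes were lower as well (-1.07 and -0.83), a value of clusters 0 and 1 together that rests on cluster 0, since cluster 1 held a larger mitochondrial share than clusters 2 and 3. Gapdh, a glycolytic enzyme, was at 617 (Ptbp1-Ctrl) and 554 CPM (Ptbp1-KO) against 2080 and 1972 CPM (log2 -1.75 and -1.83). Of 14 genes for protein folding and translocation in the endoplasmic reticulum (ER), 14 were lower (-1.03 and -1.24), and of the 5 genes of the dissociation stress list that were tested, 4 were lower (-0.78 and -0.86).

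Rod genes did not move as a block, and 8 of 10 phototransduction genes were lower (medians -1.0 and -1.05). Gnat1, the rod transducin, was at 2304 (Ptbp1-Ctrl) and 2216 CPM (Ptbp1-KO), against 8024 and 8845 CPM in clusters 2 and 3 (log2 -1.80, -1.83 to -1.77, and -2.0, -2.03 to -1.96). Pde6g, the inhibitory subunit of PDE6, differed by -1.69 and -1.91, and Gngt1 by -1.62 and -1.70. The catalytic subunits of the same enzyme stood apart from these: Pde6b was at 1871 and 1787 CPM against 1955 and 2001 CPM (-0.06 and -0.16), and Pde6a differed by -0.22 and -0.34. Cnga1 was at 1215 and 1077 CPM against 1645 and 1518 CPM (-0.44 and -0.50).

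Ranked by the weaker of its ratios in the 2 libraries (the smaller absolute log2 ratio), the lowest gene was Rbp3. It was at 541 (Ptbp1-Ctrl) and 405 CPM (Ptbp1-KO) against 1955 and 1732 CPM (log2 -1.85, -1.92 to -1.78, and -2.10, -2.18 to -2.01). In Ptbp1-KO alone Cops9 and Hspb6 were lower still, both at -2.14. Rbp3 was detected in 29.1% and 22.5% of these rods at 700 UMIs, 65.3% and 62.6% of rods of clusters 2 and 3, and 10.9% and 7.94% of Müller glia. Before thinning, these shares were 38.9% and 34.2%, 82.8% and 85.7%, and 31.3% and 26.8%, with Müller glia the deeper cells. The other 9 lowest genes were Gnat1, the ribosomal protein genes Rpl26, Rplp1 and Rps25, Gapdh, the translation-associated Tpt1, the small heat shock protein gene Hspb6, the COP9 signalosome subunit gene Cops9, and 1110008P14Rik, from -1.74 to -1.81 in Ptbp1-Ctrl and from -1.75 to -2.14 in Ptbp1-KO. Of the genes for calcium feedback and shutoff of the light response, 7 of 11 were lower and 2 were higher. Rcvrn, which encodes the calcium sensor recoverin, differed by -1.54 and -1.76, while Sag, the rod arrestin, was at 10760 and 10465 CPM against 12023 and 11928 CPM (-0.16 and -0.19). The photoreceptor guanylate cyclase gene Gucy2f was higher, by 0.77 and 0.66, and Gnb5, a G protein subunit of the shutoff complex, was higher by 0.25 and 0.29, about the size of the TMM shift.

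Outer segment and synapse genes went both ways. Among 13 outer segment genes, 7 were lower, such as the disc rim gene Rom1 (-1.49 and -1.56), and 2 were higher, Impg1 of the interphotoreceptor matrix (0.55 and 0.33) and the ciliary kinase gene Mak (0.62 and 0.45). Of 16 rod synapse genes tested, 7 were higher and 7 lower. The higher ones included Rims2 (1.09 and 0.99), Pclo (1.05 and 0.94) and Cacnb2 (1.21 and 1.21), which serve the active zone and its calcium channel, and Dmd (dystrophin), at 6910 and 6402 CPM against 3361 and 3207 CPM (1.04 and 1.0). Among the lower ones were the vesicle genes Slc17a7 (-1.26 and -1.40) and Vamp2 (-1.21 and -1.31) and Unc119 (-1.26 and -1.43). Of 14 photoreceptor transcription factor genes, 5 were higher and 4 lower, no larger shares than over all genes tested (44.5% and 30.9%). Nrl was at 713 and 574 CPM against 2154 and 1821 CPM (-1.59 and -1.66) and Nr2e3 differed by -0.83 and -0.99, whereas the thyroid hormone receptor gene Thrb was at 1124 and 1171 CPM against 525 and 561 CPM (1.10 and 1.06) and Prdm1 differed by 0.73 and 1.08. Of 10 splicing regulator genes tested, 9 were higher, among them Srrm4 (1.13 and 0.87), Celf2 (0.83 and 0.88) and Ptbp2 (0.50 and 0.43), and Msi1 was lower (-0.52 and -0.46). Of 6 circadian clock genes tested, 2 were higher, also below 44.5%, one of them Arntl (BMAL1, 1.04 and 1.05).

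The direction went with the annotated span of the gene on the genome, which the choice of clusters did not use. Of 247 coding genes under 5 kb, 91.5% were lower and 2.43% higher in clusters 0 and 1 (median log2 -1.06 and -1.15), and of 279 genes of 5 to 10 kb, 81.4% were lower and 1.79% higher. At 20 to 50 kb the shares were even, 28.8% higher and 26.0% lower of 882 genes, with medians of 0.05 and 0.00 that lie below 0 after the TMM shift. Of 506 genes of 100 to 200 kb, 85.8% were higher and 1.19% lower, and of 309 genes of 200 kb or more, 96.4% were higher and 0.971% lower (medians 1.02 and 0.98). The higher coding genes had a median span of 95.7 kb with 17 exons, the lower ones 10.4 kb with 6 exons, and all those tested 44.3 kb. Among the examples above, Gnat1 spans 5.24 kb, Nrl 6.0 kb, Rbp3 10.2 kb and Gapdh 4.75 kb, Pde6b spans 44 kb, and Thrb, Cacnb2, Rims2 and Dmd span 378, 385, 486 and 2257 kb. Others went against the order: Pde6a, slightly lower, spans 69.6 kb, and 1700028K03Rik, among the 10 highest genes below, spans 16.8 kb. Whether the counts include reads from introns, of which long genes hold more, is not given in the sources used here, and its part in this order was not tested.

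**Figure D3:**
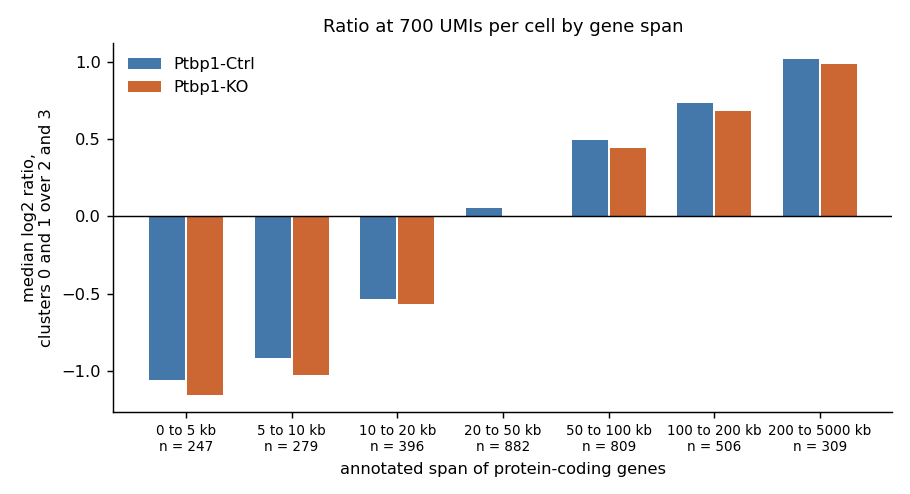
Median log2 ratio of CPM, clusters 0 and 1 over clusters 2 and 3, at 700 UMIs per cell, for protein-coding genes grouped by annotated span (n genes under each pair of bars), in each library. Genes under 20 kb lie below 0 and genes of 50 kb or more above 0 in both libraries.

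Of 125 lncRNA genes tested, 85 were higher and 25 lower (medians 0.82 and 0.79). Malat1 was at 33049 and 38646 CPM against 17637 and 21347 CPM (0.91 and 0.86). The 10 highest genes of all were 7 antisense lncRNAs, 1 lincRNA (Gm26936) and 2 coding genes, Lrrc4 and 1700028K03Rik. The first, 4930419G24Rik, was at 429 and 495 CPM against 121 and 118 CPM (1.82, 1.65 to 2.0, and 2.06, 1.86 to 2.27). Gm48678 followed (1.82 and 1.90), then Gm16168, Rsf1os1, Gm26827, Gm48677 and 4933413L06Rik, between 1.67 and 1.95. Lrrc4, which encodes a synaptic adhesion protein, was at 143 and 161 CPM against 44.5 and 38.6 CPM (1.68 and 2.06). Reads of an antisense gene and of its partner cannot be told apart unless strand was used in counting, which is not given in the sources used here.

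Cluster 1 rods stood apart from cluster 0 rods in the mitochondrial genome and in few other genes. Of 3555 genes tested at 700 UMIs, 84 (2.36%) were higher in cluster 1 in both libraries and 133 (3.74%) lower. In cells of 1000 to 1500 UMIs 55 of the 84 and 48 of the 133 were past the fold again, and in cells thinned to 1000 UMIs 58 and 60, with 0 turned over in either. With TMM scaling the counts were 99 and 99, and with mitochondrial genes taken out of the total 148 and 64, so the split between the directions depends on the scaling. All 13 mitochondrial genes were higher, with medians of 2.5 and 2.36, and the 10 highest genes were all among them. The ATP synthase subunit gene mt-Atp8 was at 131 CPM in cluster 0 and 694 CPM in cluster 1 in Ptbp1-Ctrl, and at 241 and 1314 CPM in Ptbp1-KO (2.41 and 2.45), and the cytochrome b gene mt-Cytb differed by 2.52 and 2.40. The authors' scaling removed variation in mitochondrial content before clustering, and its part in this division was not tested. Nuclear genes of oxidative phosphorylation did not share the difference, with 3 of 74 higher and medians of 0.16 and 0.00.

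Of genes outside the mitochondrial genome, the 10 highest in cluster 1 were looked at after their values were seen. Rbp3, the highest, was at 418 CPM in cluster 0 and 912 CPM in cluster 1 in Ptbp1-Ctrl, and at 321 and 810 CPM in Ptbp1-KO (1.13, 1.0 to 1.25, and 1.34, 1.20 to 1.47). The synaptic membrane protein gene Clstn1 differed by 0.74 and 0.97, and the photoreceptor cadherin gene Cdhr1 by 0.73 and 0.76. Also in this set were 3 genes of the ER, with Hsp90b1 higher by 0.72 and 0.73, Calr by 0.83 and 0.77 and Rpn1 by 0.75 and 0.79. The list of ER genes was written after these values were seen, so no count over it is given for this comparison. Cathepsin F (Ctsf, 0.77 and 0.77) and Pigt, of the GPI anchor pathway (0.82 and 0.73), were also among the 10 highest.

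Of the phototransduction genes 2 of 10 were higher, among them the exchanger gene Slc24a1 (0.53 and 0.66), and of outer segment genes 3 of 13, the disc genes Rom1 (0.61 and 0.56) and Prph2 (0.32 and 0.32) with Cdhr1. At the synapse the vesicle genes Syp (0.47 and 0.46) and Slc17a7 (0.37 and 0.29) were higher, 2 of 17. Most rod genes lay within the fold, such as Pde6b at 1876 and 1857 CPM in Ptbp1-Ctrl (-0.02) and 1809 and 1686 CPM in Ptbp1-KO (-0.10). Of 78 ribosomal protein genes 9 were higher, with medians of 0.40 in Ptbp1-Ctrl but 0.03 in Ptbp1-KO. None of 11 calcium feedback genes and 1 of 14 transcription factor genes were past the fold in both libraries. The latter was Neurod1, a factor for photoreceptor maintenance, at 422 CPM in cluster 0 and 295 CPM in cluster 1 in Ptbp1-Ctrl, and at 432 and 272 CPM in Ptbp1-KO (-0.52 and -0.67).

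Malat1 was lower in cluster 1 by -0.30 and -0.33. The 10 lowest genes were Amn1 (-0.71 and -0.64), the ceramide kinase gene Cerk (-0.63 and -0.63), Neurod1, Arl4d, Gm47543, the pyruvate dehydrogenase subunit gene Pdhb, the chromatin insulator gene Ctcf (-0.47 and -0.43), the ER calcium channel gene Itpr2 (-0.43 and -0.51), Tnfsf12 and Hnrnpul2. The coding genes higher in cluster 1 spanned a median of 15.2 kb and the lower ones 38.6 kb, against 51.5 kb for all those tested.

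**Figure D4:**
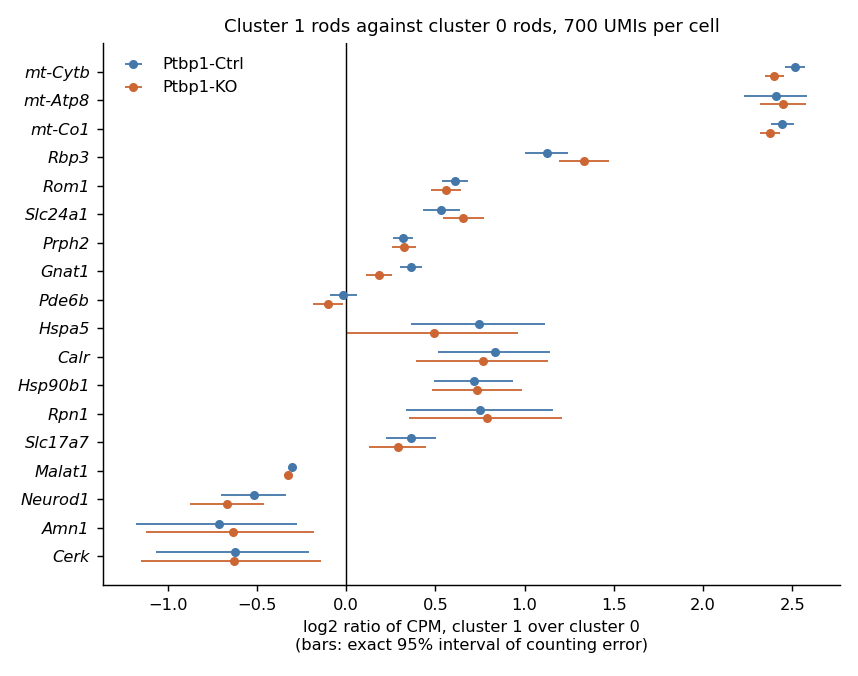
Log2 ratio of CPM, cluster 1 over cluster 0, at 700 UMIs per cell for named genes in each library, with exact 95% intervals of counting error. Mitochondrial genes lie near 2.4, Rbp3 above 1, the ER genes mostly between 0.5 and 0.8, and Malat1, Neurod1, Amn1 and Cerk below 0.

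Between the libraries, most genes of these rods lay within 1.19-fold. Of 3838 genes with a mean of at least 50 CPM in rods of clusters 0 and 1, 273 (7.11%) were higher and 264 (6.88%) lower in Ptbp1-KO, 537 in either direction (14%). With TMM scaling, 181 were higher and 515 lower, so that the higher share of these genes went from 50.8% to 26.0%. The median log2 ratio of all genes tested went from -0.02 to -0.08 with it. In cluster 0, 295 of 3873 genes were higher (7.62%) and 253 lower (6.53%). Cluster 1, with fewer cells and UMIs, had 562 of 3728 higher (15.1%) and 668 lower (17.9%), and rods of clusters 2 and 3 had 294 of 3708 higher (7.93%) and 196 lower (5.29%). Of these counts, the part that counting error alone gives was not tested.

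The genes that differed most between the libraries were few and mostly not rod genes by function. Slc17a1, a phosphate transporter gene (chr13:23867750-23895730, mm10), rested on 19 UMIs in the control and 1209 in the knockout library, or 2.89 and 147 CPM (log2 5.67, 5.02 to 6.41). At 700 UMIs it was detected in 0.212% and 9.27% of these rods, and in 0 and 0.422% of Müller glia. Near it on chromosome 13, the antisense gene Gm11342 (chr13:24335937-24414803) had 3 and 1173 UMIs (8.29, 6.74 to 10.57), and Carmil1, which encodes a regulator of actin capping, was at 21.5 and 96.8 CPM (2.17). On chromosome 9 the adjoining genes Abhd14b (chr9:106447459-106452923) and Abhd14a (chr9:106440051-106447678), whose annotated ends overlap on opposite strands, went opposite ways: Abhd14b was at 44.6 and 238 CPM (2.42) and Abhd14a at 90.0 and 14.1 CPM (-2.67). The antisense gene Gm19667, also on chromosome 9, was at 380 and 37.6 CPM (-3.34).

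The other genes among the 10 highest were A930015D03Rik (2.99), Enox1 (1.47), the propionyl-CoA carboxylase gene Pccb (1.43), Gm21738 (1.28), the netrin receptor gene Dcc (1.25) and 9330159M07Rik (1.15). Lower in Ptbp1-KO on the X chromosome were the neighbours Magt1 (-1.73) and Cox7b, a subunit of cytochrome c oxidase, at 331 and 144 CPM (-1.20). The class I histocompatibility gene H2-D1 (-1.19), F630040K05Rik (-1.09) and Cfap54 (-1.04) were lower as well. Gm47283 on the Y chromosome was at 2238 and 478 CPM (-2.23) and Gm21887 on the X chromosome at 95.7 and 19.5 CPM (-2.30). Counts of these predicted genes and of H2-D1, which have close copies in the genome, are uncertain. The globin gene Hbb-bs had the lowest ratio (-5.86), but 740 of its 742 Ptbp1-Ctrl UMIs lay in 1 cell.

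Phototransduction genes of these rods lay at or below the control level in Ptbp1-KO, with 2 of 10 past the fold, both lower, and a median of -0.10 against -0.02 for all genes tested. That median was -0.16 with TMM scaling, -0.18 in cluster 1 and -0.24 in cells of 1000 to 1500 UMIs. Over all genes tested it was -0.08 with TMM scaling and -0.02 in both of the others. Pde6g was at 2243 and 1696 CPM (-0.40, -0.44 to -0.37) and differed by -0.25 in clusters 2 and 3. Gnat1 was nearly equal, at 2414 and 2437 CPM (0.01, -0.02 to 0.04), and so was Pde6b, at 1889 and 1830 CPM (-0.05, -0.08 to -0.01). Cnga1 was at 1218 and 1077 CPM (-0.18). Of the genes for calcium feedback and shutoff 0 of 11 were past the fold in clusters 0 and 1 together, with a median of -0.18, and 5 of 11 were lower in cluster 1, where 17.9% of all genes tested were.

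Among 14 transcription factor genes 3 were higher in Ptbp1-KO and 2 lower, with a median of 0.04. It was -0.03 with TMM scaling, where that of all genes tested was -0.08. Otx2, a photoreceptor and bipolar cell factor, was at 311 and 415 CPM (0.42, 0.34 to 0.50), Prdm1, which favours photoreceptor over bipolar fate, at 112 and 148 CPM (0.41, 0.28 to 0.54), and Samd7, a Polycomb component of rods, at 215 and 270 CPM (0.33, 0.23 to 0.42). The same 3 differed by 0.28, 0.33 and 0.27 in rods of clusters 2 and 3. Nr2e3 was at 723 and 562 CPM (-0.36, -0.42 to -0.30) and Mef2d at 268 and 217 CPM (-0.30, -0.40 to -0.21), while Nrl, at 738 and 628 CPM, differed by -0.23 (-0.29 to -0.18). The study singled out 9 rod genes from the rods of these same libraries, so their values here are not independent of it. It describes Pde6g, Guca1a, Pdc, Rcvrn, Rom1, Nrl and Nr2e3 as increased in knockout rods and Otx2 and Prdm1 as reduced. Here all 7 of the first set were below 0, 2 of them past the fold (median -0.18, and -0.49 in cells of 1000 to 1500 UMIs). Otx2 and Prdm1 were both higher (median 0.41). The reason for these opposite signs was not tested.

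In the outer segment list 2 of 13 genes were lower, Mak (-0.28) and Cdhr1 (-0.25), with a median of -0.05. Of 17 synapse genes tested 1 was higher, the ribbon gene Ctbp2, at 101 and 125 CPM (0.30, against -0.02 in clusters 2 and 3), and 1 lower, the calcium channel regulator gene Cabp4, at 225 and 181 CPM (-0.32). Splicing regulators had 1 of 10 higher, Celf4 (0.27). Over all genes 7.11% were higher and 6.88% lower, so counts this small are near the background. Of 7 clock genes tested Cry1 was higher (0.32) and Bhlhe41 lower, at 116 and 79.2 CPM (-0.55). Malat1 was at 33381 and 39695 CPM (0.25), and at 0.29 in clusters 2 and 3.

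Genes of glycolysis, on which photoreceptors rely heavily, lay lower in Ptbp1-KO, with 7 of 16 past the fold and 0 higher. Over all genes tested 6.88% were lower, the share to set beside the counts of this paragraph. The glycolysis medians were -0.22 in cluster 0, -0.31 in cluster 1 and -0.23 in clusters 2 and 3. Pkm was at 508 and 413 CPM (-0.30, -0.37 to -0.23), Aldoa at 704 and 588 CPM (-0.26), and Pgk1 at 115 and 91.2 CPM (-0.34). Pgk1 (chrX:106187100-106203699) lies near Magt1 and Cox7b, named above as lower, and the part of this location in its ratio was not tested. Of the dissociation stress list 3 of the 5 tested genes were lower: the chaperone gene Hsp90aa1, at 1201 and 947 CPM (-0.34), Ier3 (-0.32) and Btg2 (-0.43). The part of dissociation stress in the lower glycolysis values was not tested. The ER list had 3 of 11 lower, among them the chaperone gene Hspa5 (-0.56).

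Ribosomal and mitochondrial genes depended on the cluster. Of 78 ribosomal protein genes 26 were lower and 6 higher in clusters 0 and 1 together (median -0.20), where 6.88% and 7.11% of all genes tested were. In cluster 1, 62 of 78 were lower (median -0.48), against 17.9% of all genes tested there. In cluster 0, 9 were lower and 13 higher (median -0.10), against 6.53% and 7.62%. Rpl29 was lower by more than most, at 131 and 66.4 CPM in clusters 0 and 1 (-0.98, and -1.08 in clusters 2 and 3), and Rps28 was at 296 and 387 CPM (0.38). Rpl29 (chr9:106429454-106431568) lies near Abhd14a and Abhd14b, named above, and the part of this location in its ratio was not tested. The 13 mitochondrial genes had a median of -0.13 over clusters 0 and 1 together but 0.28 in cluster 0 (12 tested) and 0.08 in cluster 1, with the Ptbp1-KO library holding a smaller share of its rods in cluster 1. The sign of the pooled value was thus opposite to that in either cluster. For nuclear genes of oxidative phosphorylation, 28 of 74 were lower in cluster 1 and 2 of 77 in cluster 0 (medians -0.19 and 0.02), where 17.9% and 6.53% of all genes tested were lower.

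**Figure D5:**
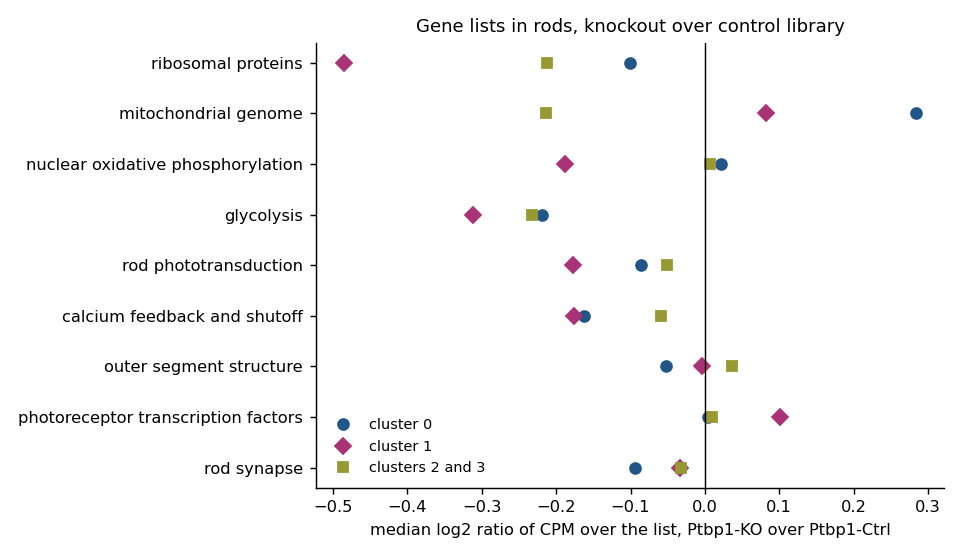
Median log2 ratio of CPM, Ptbp1-KO over Ptbp1-Ctrl, over the tested genes of 9 lists in rods of cluster 0 (circles), cluster 1 (diamonds) and clusters 2 and 3 (squares). Each point compares 1 library with 1 library: ribosomal protein genes lie from -0.48 in cluster 1 to -0.10 in cluster 0, and glycolysis genes from -0.31 to -0.22 in all 3.

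The 2 clusters mostly gave like ratios between the libraries. Of 3643 genes tested in both, 12 were past the fold in opposite directions in clusters 0 and 1, and the 95% intervals of 176 did not meet. Between clusters 0 and 1 and clusters 2 and 3, 1 of 3206 genes was opposite, Hbb-bs, and the intervals of 186 did not meet. No comparison of ratios was tested, since each rests on the same 2 libraries.

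Summed markers of other retinal cell types were low in these rods in both libraries, with those of bipolar cells the highest. Summed over 10 cone markers, cluster 0 held 286 and 349 CPM and cluster 1 held 378 and 419 CPM, against 36745 and 37607 CPM in cones, with Cnga3 at 0 in cluster 1 of both libraries. The 8 Müller glia markers summed to between 233 and 301 CPM, against 26579 and 28091 CPM in Müller glia. The 10 bipolar cell markers, like the others without thinning, summed to between 1430 and 1622 CPM, against 11499 and 12560 CPM in bipolar cells and 410 to 900 CPM in rods of clusters 2 and 3. Prkca gave 7686 of 9723 and 9881 of 12853 of these UMIs in rods of clusters 0 and 1. In bipolar cells it gave 24231 of 112563 and 26991 of 128601, so Prkca itself was less low in these rods than the sum. Amacrine markers summed to between 69.8 and 104 CPM, and markers of ganglion cells, horizontal cells and microglia to at most 21.0 CPM each, and vascular markers to at most 42.7 CPM. The blood markers of cluster 0 were at 195 CPM in Ptbp1-Ctrl, with 742 of 991 UMIs from Hbb-bs, and at 6.68 CPM in Ptbp1-KO. The part of these low levels in any difference above was not tested.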

How the data were processed

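Single-cell RNA-seq libraries of papain-dissociated P30 retina were made with the 10x Genomics 3' chemistry. Per the labels and the study's methods, the authors aligned reads to mm10 with Cell Ranger 7.0.1 and filtered, scaled and clustered cells in Seurat 4, and the deposited table holds raw UMI counts of 25778 genes in 30943 cells, not normalized. The deposited cell table gives each cell's library, cluster, cell type and percent of mitochondrial UMIs, with 2 further columns of per-cell values not used. Cells held 701 to 9998 UMIs. The gene annotation, the use of strand and the counting of introns are not given in the sources used here. Clusters and cell types were taken as deposited, and the 1 cell of cluster 1 not named Rod was left out.

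Counts were summed over the cells of a library and cluster and expressed as CPM, with Poisson exact intervals. Each ratio is the log2 of summed CPM with exact conditional binomial intervals, shares have Clopper-Pearson intervals, and all are at 95% and cover counting error only. The rods of clusters 0 and 1 summed to 6564741 UMIs (Ptbp1-Ctrl) and 8210892 UMIs (Ptbp1-KO), of which cluster 1 held 1474920 and 1171838. Genes were tested for size only: a mean of at least 50 CPM, at least 50 UMIs, and a log2 ratio of 0.25 or more, in both libraries for comparisons between clusters. Each cell was thinned once to 700 UMIs with a fixed seed for those. The scripts were tested on simulated data. Spans and gene classes came from GENCODE vM21 (97.4% of genes matched), and promoter windows from RefSeq.

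Named genes were Ptbp1, Ptbp2, Ptbp3, the members of the gene lists and the 10 highest and 10 lowest genes of each comparison, and some of these genes are not reported here. Members and lists were chosen with earlier results of these data known, and the ER list was added after its values were seen. Alternatives covered scaling, thinning, expression minimum, fold, mitochondrial filter, cluster and doublets. No doublet removal is stated, so the 5% of cells with the highest score (a cell's share of simulated doublets among 50 neighbours) were left out as an alternative, 821 and 726 cells, of which 77 and 90 were rods of clusters 0 and 1. Python 3.11.15, NumPy 2.4.6, SciPy 1.17.1 and pandas 2.3.3 were used.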

Additional observations from a re-analysis of the deposited data

Results flagged for a closer look

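Of the genes past the fold in opposite directions in the 2 clusters, those with counting intervals that did not meet are given here, and no difference was tested. The log2 ratio of Ptbp1-KO over Ptbp1-Ctrl was 0.25 in cluster 0 and -0.37 in cluster 1 for Hip1, which encodes an endocytic adaptor, and 0.27 and -0.48 for Mbd6. In the other direction it was -0.25 and 0.37 for Appbp2, -0.27 and 0.45 for Slc38a6, and -0.35 and 0.67 for the clock repressor gene Nr1d2. For the globin gene Hbb-bs it was -5.86 in clusters 0 and 1 and 8.35 in clusters 2 and 3, with 740 of 742 Ptbp1-Ctrl UMIs of clusters 0 and 1 in 1 cell.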

How the results depend on the processing

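Counts of genes past the fold, shares of rods, and list medians and most named genes between the libraries were recomputed under the alternatives, but make-up shares, the order by span and list medians between clusters were not. Of named genes, 0 reversed past the fold, and of list medians that of the mitochondrial genome went from -0.13 to 0.28 in cluster 0 only. Of the main counts, shares and levels, 43 alternative values stayed within the limits of 1.5 times or the counting interval and 30 moved. Of list medians and single genes, 302 stayed and 40 moved. Genes higher and lower in Ptbp1-KO (273 and 264) numbered 181 and 515 with TMM scaling, 52 and 76 with a mean of at least 200 CPM, 2594 and 1119 with no CPM minimum, 63 and 34 at a log2 ratio of 0.5, 562 and 668 in cluster 1 only, and 501 and 626 in cells of 1000 to 1500 UMIs, and 427 were lower in cells thinned to 1000 UMIs. In cells of 1000 to 1500 UMIs Ptbp1 was at 17.2 CPM in Ptbp1-Ctrl (21.0 in all). That depth band was chosen for the libraries after seeing the data. Genes higher and lower in cluster 1 than cluster 0 (84 and 133) numbered 136 and 267 thinned to 1000 UMIs, 148 and 253 in cells of 1000 to 1500 UMIs, 148 and 64 without mitochondrial genes in the total, 34 and 12 with at least 200 CPM, and 31 and 3 at a log2 ratio of 0.5. Those of clusters 0 and 1 over clusters 2 and 3 (1632 and 1135) numbered 441 and 304 with at least 200 CPM, where fewer genes were tested. The share of clusters 0 and 1 was 37.4% and 45.4% of all cells and 42.0% and 57.3% of rods with at least 1000 UMIs. In cells of 1000 to 1500 UMIs the list medians between the libraries moved from -0.20 to -0.40 for ribosomal proteins and from -0.24 to -0.37 for glycolysis. That for calcium feedback and shutoff moved from -0.18 to -0.28. With TMM scaling the median of the outer segment list moved from -0.05 to -0.11, and that of all genes tested from -0.02 to -0.08. The cause of these moves was not tested. No paired analysis was possible because there was 1 library per genotype and no result came from a test.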
